A study of Mus musculus with 4 samples.

Results

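Matrix metalloproteinases (MMPs), proteases of the ADAMTS family (a disintegrin and metalloproteinase with thrombospondin motifs) and the tissue inhibitors of metalloproteinases (TIMPs) were followed across the 4 arrays. Members were the probe sets assigned to a single gene in the annotation of the Affymetrix array of the mouse genome that the study used whose symbol was Mmp, Adamts or Timp followed by its number. The rule found 70 probe sets of 37 genes (18 Mmp, 15 Adamts and 4 Timp genes) among 45037 probe sets and 18193 genes. Of these genes, 25 passed a filter on low signals and entered the test, and 12 lay under it.

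The study sorted renal lineage cells from differentiated mouse ES cells with an antibody against KSP (kidney specific protein), a cadherin of the kidney tubule. All samples came from 1 ES cell line of strain 129/Ola, EB3, in its derivative CAG-GFP EB3, where the CAG promoter drives GFP throughout. Every culture passed through embryoid bodies and received Activin at 10 ng/mL until day 18, and was then freed with trypsin and collagenase type IV and treated with an antibody to CD16/CD32. KSP-positive cells (2 arrays) and KSP-negative cells (2 arrays), both GFP-positive and gated for live cells, were taken from 2 independent experiments, and the replicate numbers are not tied to an experiment by any source used here. A p-value takes in the spread between these few arrays only.

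MMPs and ADAMTS proteases hold a zinc ion at the catalytic site, are made as inactive proenzymes, and cut collagens, proteoglycans and other matrix proteins. TIMPs bind the catalytic site of MMPs, and Timp3 also inhibits several ADAMTS proteases. Pro-MMP2 is activated at the cell surface by MMP14 with the help of TIMP2. In the developing kidney these enzymes are studied for their part in the branching of the ureteric bud, and macrophages and fibroblasts are known sources of several of them.

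A group of MMP genes lies side by side on mouse chromosome 9, and the promoters of this group are shown because they held both the largest differences of the family and a shared stretch of letters. In the gene table at hand (GRCm38.p6) 10 Mmp genes follow one another there, of which 9 were measured (Mmp13, Mmp12, Mmp1b, Mmp3, Mmp1a, Mmp10, Mmp8, Mmp20 and Mmp7, in this order). The letters TGAGTCA, or TGACTCA when read from the other strand, are the binding sequence of AP-1, the dimer of Fos and Jun proteins that is known to drive several MMP genes. RefSeq promoters, which run from 250 bases before to 50 bases after a start site, were listed for 23 of the 37 genes. All 9 measured genes of the chromosome 9 group had one. The 14 members without one, among them Adamts6, Mmp2 and Mmp9, were all outside the group and were not searched. The AP-1 letters stood in 7 of the 11 promoters listed for the chromosome 9 genes (63.6%), each of a different gene, in 0 of the 15 promoters of the other 14 genes and in 5.20% of all 32851 promoters. Each of these 7 promoters also held TATAAA, the core letters of the TATA box, searched on the strand of the gene only. Both stood in 0.624% of all promoters. The search took TATAAA at any distance from the start site. Its first letter stood at 4 for Mmp12, after the listed start. It stood at -7 for Mmp3, -16 for Mmp13, -28 for Mmp1a, -29 for Mmp10 and -49 for Mmp1b. Mmp7 had a further match before the stretch printed below. TATAAA alone stood in 8 of the 11 promoters, in 1 of the other 15 (Adamts1) and in 8.32% of all promoters. The letters of the AP-1 and TATA sequences did not overlap in the stretches shown. A match in a window is a description and not evidence of binding. The group was shown in part for these letters, so its share beside that of all promoters is no test. Its genes are neighbours of 1 family, and their matches are not independent counts. The stretches are given 5′ to 3′ on the strand of the gene, 70 bases each, with the AP-1 letters and TATAAA in capitals.
Mmp13 (chr9:7272469-7272538, plus strand): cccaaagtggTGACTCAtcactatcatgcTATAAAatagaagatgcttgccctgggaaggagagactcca
Mmp12 (chr9:7347320-7347389, plus strand): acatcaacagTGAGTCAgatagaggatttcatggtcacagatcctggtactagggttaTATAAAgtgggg
Mmp10 (chr9:7502269-7502338, plus strand): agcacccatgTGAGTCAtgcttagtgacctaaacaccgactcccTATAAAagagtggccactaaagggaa
Mmp3 (chr9:7445766-7445835, plus strand): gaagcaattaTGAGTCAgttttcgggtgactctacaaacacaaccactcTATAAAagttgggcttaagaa
Mmp1a (chr9:7464058-7464127, plus strand): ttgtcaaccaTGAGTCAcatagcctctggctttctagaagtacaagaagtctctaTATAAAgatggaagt
Mmp1b (chr9:7388060-7388129, minus strand): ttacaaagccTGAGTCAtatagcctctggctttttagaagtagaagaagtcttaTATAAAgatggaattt
Mmp7 (chr9:7692017-7692086, plus strand): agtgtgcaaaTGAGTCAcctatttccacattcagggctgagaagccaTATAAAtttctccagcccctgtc
For comparison, the 70 bases before the start sites of Mmp14 and Adamts12 are shown, whose listed promoters held neither stretch of letters.
Mmp14 (chr14:54431528-54431597, plus strand): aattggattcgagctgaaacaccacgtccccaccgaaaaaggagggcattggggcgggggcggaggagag
Adamts12 (chr15:11064703-11064772, plus strand): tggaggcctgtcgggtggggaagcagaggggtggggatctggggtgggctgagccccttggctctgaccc
The share of G and C in the whole window was between 37.7% and 52.0% in the chromosome 9 promoters and between 53.3% and 80.0% in those of the other members, around medians of 42.7% and 66.0%. The median of all promoters was 52.7%. Mmp12 and Mmp7 each had a further listed start site without the AP-1 letters.

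Each value below is the log2 of a MAS5 signal after the arrays were scaled to a common 75th percentile, where 3.62 is the floor to which lower signals were raised. Signals of different genes come from different probes and are not compared. Of the 25 genes tested, 3 rose in KSP-positive cells at an adjusted p under 0.05 from limma (Mmp13, Adamts12 and Adamts6), 0 fell and 22 stayed short of the threshold. Among all 12849 genes 1.84% were called higher and 1.65% lower. Without adjustment, 14 members were higher (background 9.05%) and 0 lower (8.72%) at a p under 0.05, and the methods' t-test with the same adjustment called 0 members. Without the filter limma called none of 18193 genes. More than 2-fold higher were 12 members, where the background was 7.92%, and 0 were more than 2-fold lower, where it was 7.66%. Both KSP-positive arrays lay above both KSP-negative arrays for 18 members and below them for 1, against 24.4% and 24.6% of all genes. The median difference was 0.96 on the log2 scale over the 25 members and -0.03 over all genes tested. The counts describe the genes past the filter only. Mmp13, Mmp12 and Adamts7 passed it with a KSP-negative mean under the filter, and Timp4 with a KSP-positive mean under it.

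**Figure D1:**
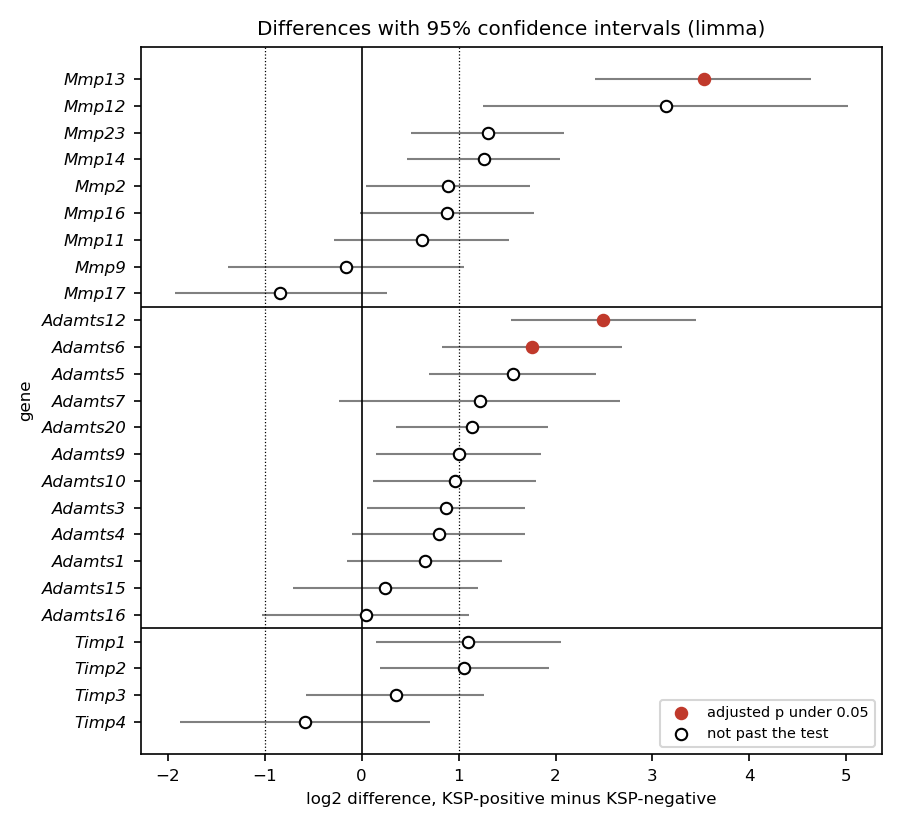
KSP-positive minus KSP-negative log2 signal (horizontal axis, means of n = 2 arrays) of the 25 tested genes (vertical axis, grouped as MMP, ADAMTS and TIMP), with 95% confidence intervals from limma; red filling marks an adjusted p under 0.05 and dotted lines mark a 2-fold difference. Of the points, 22 lie to the right of 0 (the median of all genes tested was -0.03), and Mmp13, with a difference of 3.53, lies farthest.

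Mmp13 and Mmp12 had the largest differences of all members. Mmp13, a collagenase that cuts fibrillar collagen and is known from cartilage, bone and inflamed tissue, had log2 signals of 8.51 and 7.42 in KSP-positive replicates 1 and 2, and of 4.33 and 4.55 in the KSP-negative replicates 1 and 2. Both KSP-positive arrays were far above both KSP-negative arrays. The means were 7.97 ± 0.77 and 4.44 ± 0.16 (SD, n = 2), an 11.5-fold rise (95% confidence interval of the log2 difference 2.41 to 4.64, adjusted p = 0.00624 from limma). Mmp13 entered the test through its KSP-positive arrays, with a KSP-negative mean under the filter. With a floor at the 40th percentile its log2 difference was 2.75, without the filter its adjusted p was 0.31, and with a filter at the 60th percentile it was not tested.
Mmp12, the elastase of macrophages, had log2 signals of 8.29 and 5.22 in the KSP-positive replicates, while the KSP-negative arrays were both at the floor of 3.62. The groups did not overlap, but the KSP-positive replicates differed from each other with a SD of 2.18. The KSP-positive mean of Mmp12 was 8.80 times the floor, and the difference did not pass the test (adjusted p = 0.0773). The size of this ratio rests on the floor and on the brighter array, and with a floor at the 40th percentile the log2 difference was 1.54 (adjusted p = 0.332). Without KSP-positive replicate 1 the log2 difference of Mmp12 was 1.60, and without KSP-positive replicate 2 it was 4.68. Each of these fits set 1 KSP-positive array against 2 arrays at the floor. A p-value from them does not take in the spread of the KSP-positive replicates and is not given. The single probe sets of Mmp13 and Mmp12 on the array leave no second measurement of either gene.
The other 7 genes of the chromosome 9 group lay under the filter and have no test. Mmp10, a stromelysin, had log2 signals of 5.90 and 5.31 in the KSP-positive replicates against 3.62 (the floor) and 4.50 in the KSP-negative replicates. Mmp3, the stromelysin that also activates other pro-MMPs, had 5.47 and 5.52 against 4.64 and 4.60. Both genes were higher in both KSP-positive arrays, with log2 differences of 1.54 and 0.87. The collagenases Mmp1a, Mmp1b and Mmp8, the enamel protease Mmp20 and the matrilysin Mmp7 overlapped between the groups and had at least 1 array at the floor. Mmp20 had a signal of 5.75 in KSP-positive replicate 1 and lay at the floor in the other 3 arrays. The AP-1 letters were thus found in promoters of genes whose groups did not overlap (Mmp13, Mmp12, Mmp10 and Mmp3) and of genes whose groups did (Mmp1a, Mmp1b and Mmp7).

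**Figure D2:**
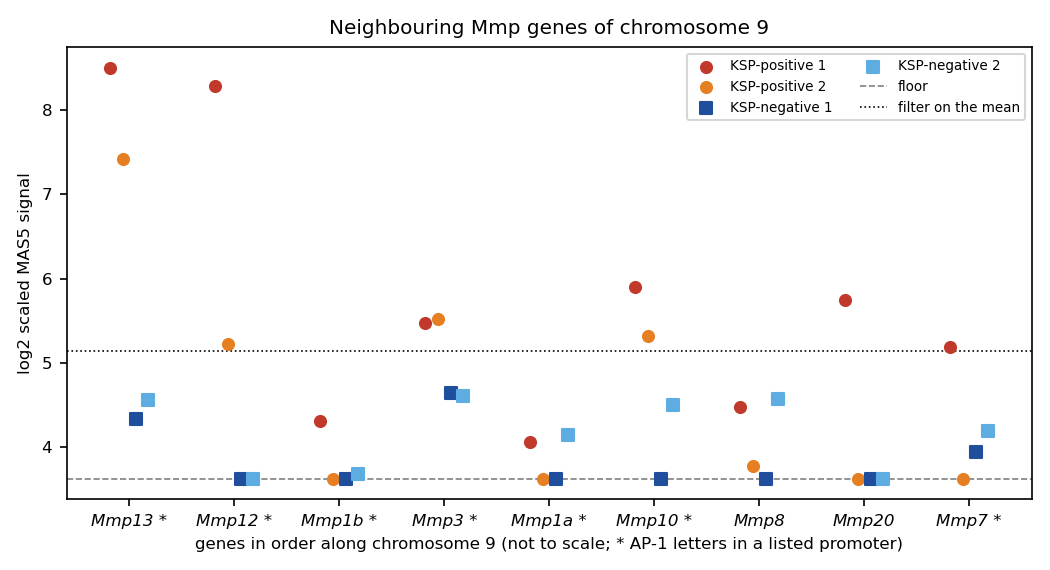
Log2 scaled MAS5 signal (vertical axis) of the 9 measured Mmp genes in their order along chromosome 9 (horizontal axis, not to scale), where circles are KSP-positive arrays and squares KSP-negative ones, a dashed line for the floor, a dotted line for the filter on the mean and a star for genes with the AP-1 letters. Mmp13 and Mmp12 rise well above the filter in KSP-positive replicate 1, at 8.51 and 8.29, while the KSP-negative arrays of all 9 genes stay under 5.14.

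Genes of macrophages rose together with Mmp13. All 12 tested macrophage markers were higher in KSP-positive cells and passed the test (background 1.84%), with a median log2 difference of 3.58. Their summed signal reached 23528 and 10910 in KSP-positive replicates 1 and 2, against 1798 and 1595 in the KSP-negative replicates 1 and 2. KSP-positive replicate 1, which had the higher sum, also had the higher signals of Mmp13 and Mmp12, which was the order of 7 of the 25 tested members. This order was not particular to macrophage genes. The sums of the mesenchymal, epithelial, kidney, and trophoblast and yolk sac endoderm lists were also higher in KSP-positive replicate 1. Those of the endothelial, undifferentiated ES cell and dissociation lists were lower there. Aif1 and C1qa were at the floor in the 2 KSP-negative arrays, whereas Ptprc, the pan-leukocyte antigen CD45, had log2 signals of 7.66 and 7.57 there. The part of macrophages in the differences of Mmp13 and Mmp12 was not tested. In sorted bulk samples, more cells of a type and more RNA per cell cannot be told apart.
Genes of the AP-1 dimer and of the response to dissociation did not pass the test. Of 12 such genes none was called, at a median log2 difference of 0.46. Without overlap 7 were higher (background 24.4%), and 2 were more than 2-fold higher (background 7.92%). Fos had log2 signals of 13.23 and 12.73 in the KSP-positive replicates and of 12.74 and 12.94 in the KSP-negative replicates, which overlapped. Jun had 11.51 and 12.00 against 11.53 and 11.61 and overlapped as well. Junb, with 9.33 and 10.10 against 8.83 and 8.74, was higher in both KSP-positive arrays (log2 difference 0.93, adjusted p = 0.222). The summed signal of the list was 45739 and 47140 in the KSP-positive replicates against 36734 and 34070, and its part in the differences of the MMP genes was not tested.

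Neither gelatinase passed the test. Mmp2, gelatinase A of stromal cells, had log2 signals of 11.42 and 11.80 in the KSP-positive replicates and of 11.19 and 10.26 in the KSP-negative replicates. All 4 arrays were bright, and the groups were close but did not overlap (log2 difference 0.89, 95% confidence interval 0.04 to 1.74, adjusted p = 0.254). A second probe set of Mmp2 gave a difference of 1.09. Mmp9, gelatinase B of white blood cells and trophoblast, had 7.14 and 8.88 in the KSP-positive replicates, against 7.72 and 8.61 in the KSP-negative ones. Here the arrays of the fractions were mixed, with the lowest and the highest value both in KSP-positive cells. The difference of -0.16 had a 95% confidence interval from -1.38 to 1.06, and the second probe set of Mmp9 gave 0.27.

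Among the membrane-bound MMPs, Mmp14 was higher and Mmp17 lower in both KSP-positive arrays, and neither passed the test. Mmp14, the activator of pro-MMP2 at the cell surface, had log2 signals of 11.08 and 10.59 in the KSP-positive replicates and of 9.83 and 9.32 in the KSP-negative replicates. The groups were separated by more than the spread within either, at 2.39-fold (95% confidence interval of the log2 difference 0.47 to 2.05, adjusted p = 0.0899). A second probe set of Mmp14 gave a difference of 1.25, and the remaining, dimmer one gave -0.29, lower in both KSP-positive arrays. Mmp16, another transmembrane MMP, had 7.62 and 8.0 against 6.62 and 7.25 (difference 0.88, adjusted p = 0.291), and its other probe sets past the filter gave 1.21 and 1.54. Mmp17, which is held by a lipid anchor, had 5.45 and 5.66 against 6.0 and 6.78. It was the only tested gene of the 3 families lower in both KSP-positive arrays, with a difference of -0.84 (95% confidence interval -1.93 to 0.26, adjusted p = 0.417). Mmp24 lay under the filter on its 3 probe sets, all of which overlapped.
Of the remaining MMPs, Mmp23, which lacks the hemopexin domain of most MMPs, had log2 signals of 8.88 and 9.25 in the KSP-positive replicates and of 7.85 and 7.67 in the KSP-negative replicates. The groups stood apart, 2.47-fold, without passing the test (adjusted p = 0.0803), and a second probe set of Mmp23 gave a log2 difference of 1.41. Mmp11, a furin-activated stromelysin of stroma, was higher by 0.62 without overlap (adjusted p = 0.478). Mmp19 lay under the filter on both of its probe sets, with differences of 1.0 and 1.56 and no overlap, and with 1 KSP-negative array of each at the floor.

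**Figure D3:**
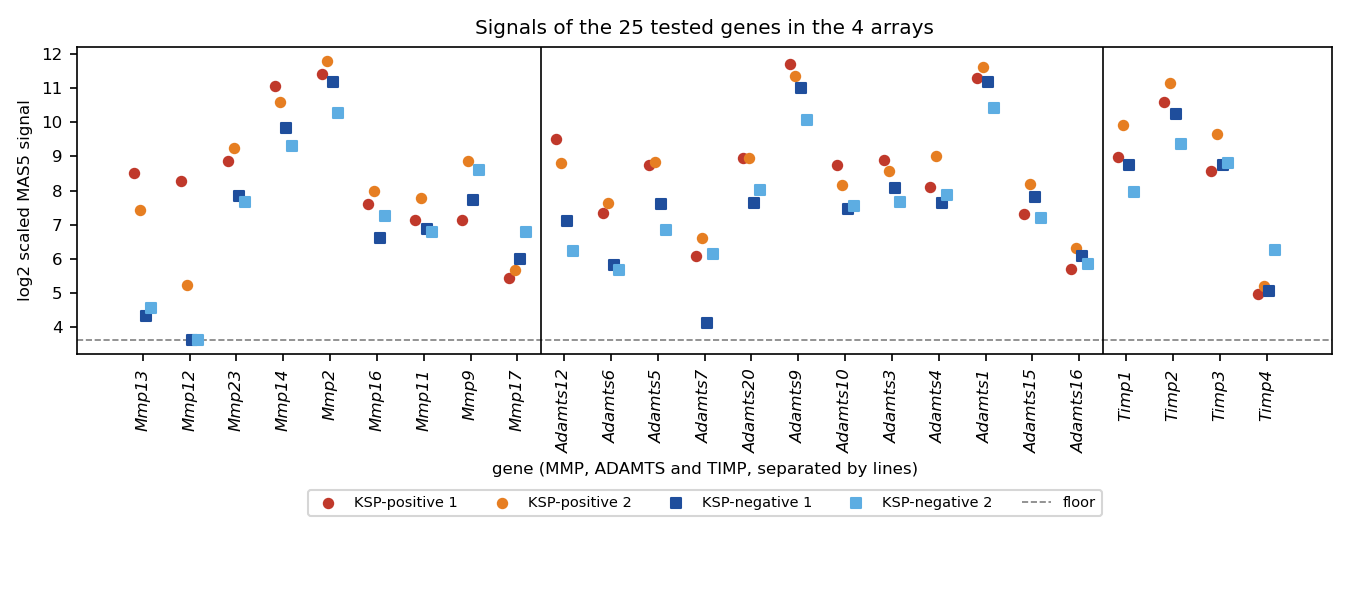
Log2 scaled MAS5 signal (vertical axis) of the 25 tested genes (horizontal axis, in the order MMP, ADAMTS and TIMP) in each of the 4 arrays, where circles are KSP-positive arrays and squares KSP-negative ones and a dashed line for the floor. For 18 genes both circles lie above both squares, and for Mmp17 both lie below; levels of different genes are not compared.

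ADAMTS genes had differences above 0 in all 12 cases tested, while the median over all genes tested was -0.03. Of the 12, 2 rose, where 1.84% of all genes were called higher. Adamts16 (0.04) and Adamts15 (0.24) were near 0 and changed sign when single arrays were left out. Adamts12, a protease known to degrade the cartilage matrix protein COMP, had log2 signals of 9.51 and 8.81 in the KSP-positive replicates and of 7.11 and 6.23 in the KSP-negative replicates. The lower KSP-positive array was well above the higher KSP-negative one. The means were 9.16 ± 0.50 and 6.67 ± 0.62 (SD, n = 2), a 5.63-fold rise (95% confidence interval of the log2 difference 1.54 to 3.45, adjusted p = 0.0135). Without KSP-negative replicate 2 the adjusted p of Adamts12 was 0.0732, at a difference of 2.05. Adamts6, which acts on fibrillin microfibrils, had 7.35 and 7.65 in the KSP-positive replicates, against 5.81 and 5.67 in the KSP-negative ones. Its replicates lay close together, and the groups stood apart. The 3.39-fold rise of Adamts6 had an adjusted p = 0.0479, close to the threshold, and the call was lost without any one of the arrays (adjusted p of 0.0703 and 0.116 without the KSP-positive replicates 1 and 2, and of 0.0779 and 0.204 without the KSP-negative replicates 1 and 2). A second probe set of Adamts6 gave a difference of 1.20. The second probe set of Adamts12 lay at or near the floor in all arrays.
The proteoglycan-cleaving ADAMTS genes, which cut aggrecan and versican, did not pass the test. Adamts5, an aggrecanase of cartilage and of embryonic tissues, had log2 signals of 8.74 and 8.85 in the KSP-positive replicates and of 7.61 and 6.86 in the KSP-negative replicates. The groups did not overlap, at 2.94-fold (95% confidence interval of the log2 difference 0.69 to 2.42, adjusted p = 0.0579). Adamts5 passed without KSP-negative replicate 1 (adjusted p = 0.0328) and not without KSP-negative replicate 2 (0.286) or either KSP-positive replicate (0.108 and 0.088). Its other probe sets past the filter gave differences of 1.31 and 0.49. Adamts20, known from the belted coat of mice that lack it, had 8.96 and 8.97 against 7.64 and 8.02, a difference of 1.14 (adjusted p = 0.118). Adamts9, a versican-cleaving protease, had 11.72 and 11.37 against 11.01 and 10.07 and stood at the edge of a 2-fold difference (1.0, adjusted p = 0.199). Its other probe sets gave 0.74 and 0.06, with overlap. Adamts1, whose loss in mice is known to deform the kidney and urinary tract, had 11.31 and 11.61 against 11.19 and 10.43. All arrays of Adamts1 were bright, and KSP-negative replicate 1 lay just under the KSP-positive arrays (difference 0.65, 95% confidence interval -0.15 to 1.45). Adamts4, another aggrecanase, had a difference of 0.80 without overlap and one of 0.31 with overlap on its second probe set, and Adamts15 one of 0.24 with overlap. Adamts8 lay under the filter, with 5.54 and 5.83 against 3.62 (the floor) and 4.96.
Adamts3, which trims the ends of procollagens, had log2 signals of 8.90 and 8.57 in the KSP-positive replicates and of 8.07 and 7.67 in the KSP-negative replicates (difference 0.87, adjusted p = 0.244). Adamts10, a partner of fibrillin, had 8.76 and 8.16 against 7.45 and 7.55 (difference 0.96, adjusted p = 0.214). Both genes were separated between the groups without passing the test. Adamts7, which also cuts COMP, overlapped because its KSP-negative replicates were at 4.13 and 6.13 and its KSP-positive replicates at 6.09 and 6.61. Adamts16 overlapped with a difference of 0.04, and Adamts18 and Adamts19 lay under the filter. Of the 3 probe sets of Adamts18, 1 was higher in both KSP-positive arrays, by 0.81, while Adamts19 was at or near the floor in all 4 arrays.

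Of the inhibitors, Timp1 and Timp2 were higher in both KSP-positive arrays on the probe sets that stood for the genes, Timp3 and Timp4 overlapped there, and none of the 4 passed the test. Timp1, the inducible inhibitor, had log2 signals of 8.98 and 9.92 in the KSP-positive replicates and of 8.74 and 7.95 in the KSP-negative replicates. The nearest arrays of the fractions were close, and the difference of 1.10 had a 95% confidence interval from 0.15 to 2.06 (adjusted p = 0.207). Timp2, which takes part in the activation of pro-MMP2 by MMP14, had 10.59 and 11.16 against 10.25 and 9.38. Again KSP-negative replicate 1 came close to the KSP-positive arrays (difference 1.06, 95% confidence interval 0.19 to 1.93, adjusted p = 0.185). Of the 6 probe sets of Timp2, 4 were more than 2-fold higher, at 1.06 to 1.60, 1 gave 0.30 with overlap and 1 lay at the floor throughout. Timp3, the inhibitor bound to the matrix, had 8.56 and 9.67 against 8.74 and 8.80, with the KSP-negative arrays between the KSP-positive ones. Its 4 probe sets gave differences of 0.58, 0.35, -0.20 and -0.30, of which the first was without overlap. Timp4 had 4.98 and 5.20 against 5.07 and 6.27, near the filter and with overlap (difference -0.58, 95% confidence interval -1.87 to 0.70). On the probe sets that stood for the genes, Mmp2, Mmp14 and Timp2 were higher in both KSP-positive arrays, as were 24.4% of all genes. The log2 differences were 0.89, 1.26 and 1.06, and none of the 3 passed the test. A dimmer probe set of Mmp14 was lower in both KSP-positive arrays (-0.29), and 1 of Timp2 overlapped (0.30).

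Over all 70 probe sets, 37 were higher in both KSP-positive arrays, 2 were lower and 31 overlapped, where 16.1% and 18.3% of all 45037 probe sets were higher and lower in this way, and 3 lay at the floor in all 4 arrays. More than 2-fold higher were 27 probe sets (background 6.21%), and 0 were more than 2-fold lower (background 5.81%). Of the 11 genes with several probe sets past the filter, 8 had differences of a single sign, and 3 (Mmp14, Mmp9 and Timp3) had both signs. Probe sets over 2-fold apart in opposite directions occurred in 0 genes. Labelling used a two-cycle amplification, and the ratio of actin signal near the 3′ end to that near the 5′ end, which grows as transcripts shorten, was 2.92 and 1.80 in the KSP-positive replicates, against 1.79 and 3.55 in the KSP-negative ones. Its part in the disagreement between probe sets of a gene was not tested.

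**Figure D4:**
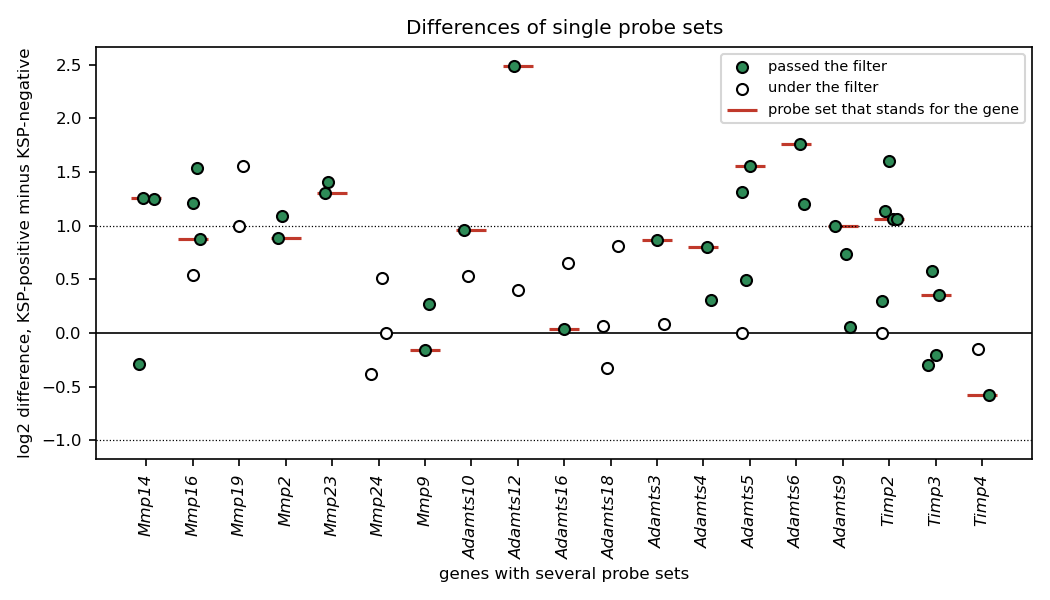
KSP-positive minus KSP-negative log2 signal (vertical axis, means of n = 2 arrays) of every probe set of the member genes with several probe sets (horizontal axis), filled when past the filter and open when under it; a red bar marks the probe set that stands for its gene and dotted lines mark a 2-fold difference. The probe sets of Timp2 run from 0.00 to 1.60, and those of Mmp14 and Timp3 lie on both sides of 0.

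Marker genes of mesenchymal and stromal cells were also measured. Of 14 such genes, 7 were called higher (background 1.84%) and 0 lower (background 1.65%), at a median log2 difference of 1.88. Their summed signal was 91889 and 68123 in the KSP-positive replicates, against 41915 and 26625 in the KSP-negative ones, and no marker of the list lay at the floor in both arrays of a fraction. Within both fractions replicate 1 had the higher sum, and among the 25 tested members replicate 1 was the higher one in 7 for KSP-positive and in 14 for KSP-negative cells. Endothelial markers, of which 0 of 10 were called, summed to 1702 and 5189 in the KSP-positive replicates and to 3259 and 1706 in the KSP-negative replicates. Of 10 epithelial markers 5 fell, with sums of 15244 and 14655 against 26650 and 33741, and of 10 markers of undifferentiated ES cells 9 fell, with sums of 7913 and 8630 against 17051 and 29609. Of 7 markers of trophoblast and yolk sac endoderm 2 fell, with sums of 12747 and 6910 against 18616 and 18886. A 2-fold drop was exceeded by 5 of them (background 7.66%), and a 2-fold rise by 1, Gata6 (background 7.92%). Gata6 had a log2 difference of 1.13 without overlap (adjusted p = 0.161 from limma). The sums lack Gcm1, Prl3d1 and Prl2c2, which were listed and not matched on the array. The 7 measured were Cdx2, Afp, Apoa1, Ttr, Sox17, Gata4 and Gata6. The part of these cell types in the differences of the ADAMTS, MMP and TIMP genes was not tested.
Markers of the kidney tubule and ureteric bud did not rise. Of 12 on the array, 7 passed the filter, and of these Lhx1 fell and 6 did not pass the test. Cdh16, the gene of KSP, overlapped between the fractions (log2 difference 0.34, adjusted p = 0.816). Umod and Slc12a3, which define segments of the tubule, lay at the floor in all 4 arrays. The summed signal of the list was 778 and 451 in the KSP-positive replicates, against 946 and 819 in the KSP-negative ones.

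**Figure D5:**
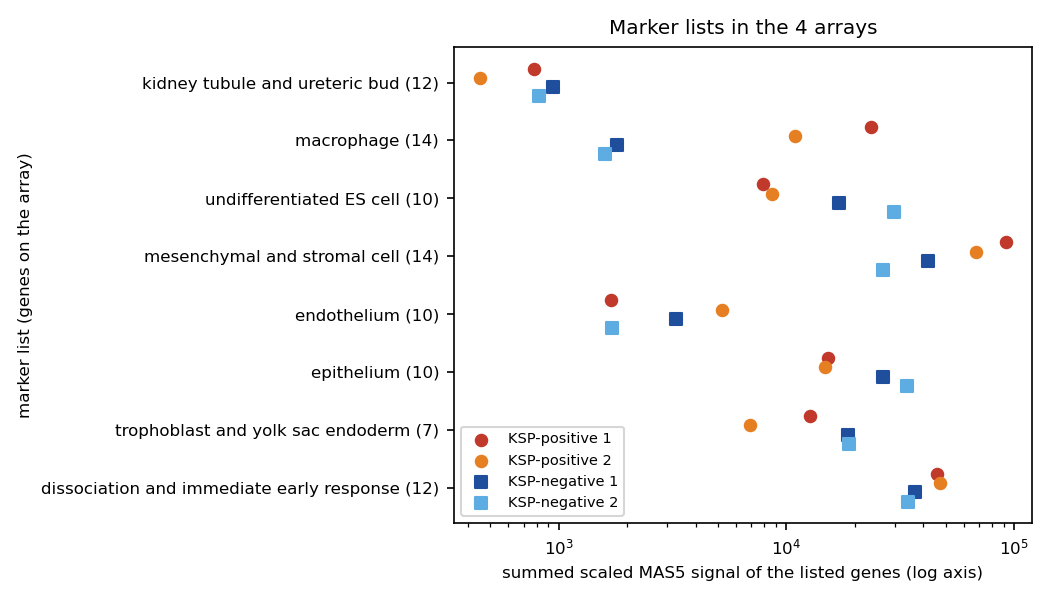
Summed scaled MAS5 signal (horizontal log axis) of the genes of 8 lists of markers (vertical axis, labelled with how many genes the array holds) in each of the 4 arrays, where circles are KSP-positive arrays and squares KSP-negative ones. The macrophage sum runs from 1595 and 1798 in the KSP-negative arrays to 10910 and 23528 in the KSP-positive arrays, and the mesenchymal sum is higher in both KSP-positive arrays.

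The partners and substrates of these proteases were taken from lists of 56 genes, of which 47 passed the filter. Of these, 6 rose (background 1.84%), 1 fell (background 1.65%) and 40 did not pass the test. A 2-fold rise was exceeded by 13 (background 7.92%) and a 2-fold drop by 3 (background 7.66%). The median log2 difference of the 47 genes was 0.56, against -0.03 over all genes tested.
Among 9 other inhibitors, clearance receptors and matrix regulators, 3 rose and 0 fell. Lrp2 and Rarres1 were more than 2-fold lower without overlap and did not pass. Their log2 differences were -1.30 and -1.51 (adjusted p = 0.145 and 0.202 from limma). Pcolce, which enhances the trimming of procollagen, had log2 signals of 12.82 and 12.30 in the KSP-positive replicates and of 10.66 and 10.31 in the KSP-negative replicates, a 4.22-fold rise (adjusted p = 0.0106). Thbs2, a thrombospondin that binds MMP2 for uptake by the receptor Lrp1, had 9.60 and 10.58 against 7.59 and 8.23, a 4.54-fold rise (adjusted p = 0.0206). A2m, a plasma protein that traps proteases of many kinds, had 9.13 and 9.43 against 7.94 and 7.68 and just passed the test (2.78-fold, adjusted p = 0.0499). Reck, a membrane-anchored inhibitor of MMPs, was higher by 0.92 without overlap and did not pass (adjusted p = 0.221).
Among 10 activators and inducers the plasminogen system held the 2 changes. Serpinb2, an inhibitor of urokinase that macrophages are known to make, had log2 signals of 9.35 and 7.93 in the KSP-positive replicates and of 5.10 and 5.09 in the KSP-negative replicates, an 11.7-fold rise (adjusted p = 0.00612). Plg, the gene of plasminogen, which is known from liver and visceral endoderm, had 4.45 and 3.62 (the floor) against 7.01 and 6.31 and fell, with a difference of -2.63 (adjusted p = 0.0338), a size set in part by the floor. Furin, which activates the membrane-bound MMPs, overlapped with a difference of 0.03 (adjusted p = 0.979).
Among 11 ADAM proteases 1 rose. Adamdec1, a protease related to the ADAMs and known from macrophages and dendritic cells, had log2 signals of 7.56 and 8.43 in the KSP-positive replicates and of 5.86 and 4.65 in the KSP-negative replicates, a 6.69-fold rise (adjusted p = 0.0195). The shedding proteases Adam10 and Adam17 had differences of 0.22 and 0.23 and did not pass. Of 6 ADAMTS-like genes, whose products resemble ADAMTS proteins without the protease domain, Adamtsl1 rose, with 9.71 and 9.62 against 7.96 and 7.45 (3.89-fold, adjusted p = 0.0165), and 4 were more than 2-fold higher. Neither of the 2 astacin proteases past the filter was called. Of 9 substrates of ADAMTS proteases none passed the test. Vcan, the gene of versican, had 12.74 and 12.40 against 11.74 and 11.37 (difference 1.01, adjusted p = 0.129), and Fbln1, a cofactor of Adamts1, had a difference of 1.30 (adjusted p = 0.0861).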

How the data were processed

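RNA from 2 KSP-positive and 2 KSP-negative samples was labelled after two-cycle cDNA synthesis and hybridized to Affymetrix arrays of the mouse genome. The deposited values are signal intensities on a linear scale, made by the authors with MAS5 (version and scaling target not given in the sources used here). A factor per array (0.874 to 1.24) brought the 75th percentiles to 281. The 20th percentile of the scaled values, a signal of 12.3, served as a floor, at which 16.8% to 22.9% of the probe sets of an array lay, and log2 was taken. Besides 64 control probe sets, 932 of 45037 were assigned to several genes and 9160 to none. A filter kept probe sets whose mean log2 signal exceeded 5.14 (the 40th percentile), of which the brightest stood for its gene. All 12849 genes were fitted with limma 3.58.1 in R 4.3.3 (empirical Bayes with an intensity trend, Benjamini-Hochberg adjustment over all genes). The fit alone was run on simulated normal values drawn with its own variance estimates. Such values meet its assumptions and do not test the floor, the filter or the choice of probe sets. With 2 arrays a fraction an exact permutation test has no p under 0.05, and the number of arrays limits the precision. GeneSpring, named in the methods without a setting, was not repeated.

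Named were all Timp genes, Mmp2, Mmp9, Mmp14, members called or over 2-fold different without overlap, the member of each role with the highest mean signal (a rule for naming only, since levels of different probes are not comparable), members under the filter, called pathway genes and members with discordant probe sets. Further members and list genes were named after their values were seen. Members and lists were chosen with earlier results of these data known. Sequences are from RefSeq (GRCm38.p6). Alternatives changed the scaling, floor, filter, probe set rule, variance model, test, pairing and arrays included. Genes without a listed probe set were not analysed here. Figures were drawn with matplotlib 3.10.9.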

Additional observations from a re-analysis of the deposited data

How the results depend on the processing

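No member was called lower under any alternative. The 3 genes called higher became 0 with no filter on dim probe sets (where 0 of 18193 genes were called, and 12 members were higher at an unadjusted p under 0.05), 1 with a filter at the 60th percentile (Adamts12; Mmp13 and Adamts6 then lay under it), 1 with every probe set tested alone (Mmp13; 83 higher and 80 lower of 27022 in all) and 0 with the methods' t-test (5 members at an unadjusted p under 0.05; 0 of all 12849 genes called). With the replicate number as a block 8 were called higher, the others being Mmp12, Mmp14, Mmp23, Adamts5 and Adamts20, while calls over all genes went from 236 higher and 212 lower to 571 and 560; no source pairs the replicates, and with 2 pairs the deviations of equal numbers had a correlation of 0.17 across genes. Leaving out each array in turn gave 1 to 3 genes called higher, 0 to 0 called lower, 11 to 14 over 2-fold higher and 0 to 2 over 2-fold lower. The count was 1 without KSP-negative replicate 2 (Mmp13), where 72 of all genes were higher and 52 lower. The genes over 2-fold lower were Mmp9 (-1.03) without KSP-positive replicate 2, and Mmp17 (-1.22) and Timp4 (-1.19) without KSP-negative replicate 1; the lone array of a fraction is then taken to vary like the other fraction. Adamts6 also lost its call with quantile normalization (adjusted p = 0.0585) and with the mean of its probe sets (0.0848), and the cause was not tested. Mmp12 passed with the signals as deposited (adjusted p = 0.000327), and with no floor it lay under the filter. The median of all genes was -0.12 with the signals as deposited.

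Genes near 0 changed sign without a call. Adamts16 was at -0.05 with the signals as deposited, -0.00 with quantile normalization, and -0.27 and -0.06 without KSP-positive replicate 2 and KSP-negative replicate 2. Mmp9 was at 0.06 with the mean of probe sets, and at 0.71 and 0.29 without KSP-positive replicate 1 and KSP-negative replicate 2. Adamts15 was at -0.20 and -0.06 without KSP-positive replicate 2 and KSP-negative replicate 2, Timp3 at -0.21 without KSP-positive replicate 2, and Timp4 at 0.02 without KSP-negative replicate 2. Leaving out 1 array at a time, Adamts16 ranged from -0.27 to 0.36, Adamts15 from -0.20 to 0.69, Timp3 from -0.21 to 0.90, Mmp9 from -1.03 to 0.71 and Timp4 from -1.19 to 0.02. Of the values for single genes under all alternatives, 357 kept their direction and their side of the threshold, 15 lost the call, 9 gained it and 11 changed sign. Only the 3 called genes could lose a call. It held in 13 of 15 alternatives for Mmp13, in 12 of 16 for Adamts12 and in 6 of 15 for Adamts6. Signals near the floor limit the dim members, among them the 12 genes under the filter.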
